A study of Mus musculus with 12 samples.

Results

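The total renal tubule fraction of mouse kidneys was compared with the fraction left after tubules carrying the green fluorescent protein EGFP had been sorted away, to find which transcripts leave with the distal convoluted tubule (DCT) and which distal transcripts stay. The comparison uses 8 of the 12 arrays of the series, chosen by their sample type: 4 arrays of the fraction called ALL, the total tubules, and 4 arrays of the fraction called EGFP-, the tubules without fluorescence. Both fractions come from the same 4 mice, so each mouse serves as its own control, and the remaining 4 arrays, of the fluorescent DCT tubules (EGFP+), enter no test and are set beside the results as values. Mice 1 and 3 are female and mice 2 and 4 male. All 3 fractions passed through the same large-particle flow sorter (COPAS), were prepared for RNA extraction and Cy3 labelling in the same way, and come from mice in which DCT tubules fluoresce. The sources used here do not give the promoter that drives EGFP, the strain, the age or any treatment. Each array measures RNA of 1 mouse's tubule fraction, so fewer tubules of a kind and less RNA per tubule cannot be told apart.

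The DCT is the short segment between the thick ascending limb and the connecting tubule. It reabsorbs sodium chloride through the thiazide-sensitive cotransporter encoded by Slc12a3, takes up magnesium through the channel TRPM6 and, in its late part and in the connecting tubule, takes up calcium through TRPV5, calbindin and the sodium calcium exchanger. The cotransporter is switched on by a kinase cascade of the WNK kinases and SPAK, and the WNK kinases are themselves removed by a ubiquitin ligase that contains KLHL3 and CUL3. Many other products found in the DCT are shared with its neighbours, such as the sodium channel ENaC with the connecting tubule and collecting duct.

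Levels are log2 processed signals minus each array's 75th percentile, so a level of 0 is the upper quartile of that array. A difference is the ALL level minus the EGFP- level of the same mouse, and the same difference is also given as the percent of the ALL level that was kept in EGFP-. Levels of different probes are not compared with each other, since each probe has its own response. Before scaling, the arrays' 75th percentiles ran from 922 on the ALL array of mouse 4 to 2270 on the ALL array of mouse 1, and the share of probes well above background from 53.9% to 65.6%. No gene tested was saturated on these 8 arrays. The ALL array of mouse 2 carried 516 spots marked as outliers, which were left out, so that 388 of the 16523 genes tested lack mouse 2. Precision is limited by the number of arrays.

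The 4 genes that mark the DCT in these tubules all fell steeply when EGFP+ tubules were removed. Slc12a3 lay at 4.69, 4.52, 4.81 and 4.03 in the ALL fraction of mice 1 to 4 and at -0.25, -1.77, -0.56 and -0.82 in EGFP-, and the 2 groups did not overlap. The difference was 5.36 ± 0.24 (SE), with 2.44% (95% interval 1.61% to 3.69%) of the ALL level kept (limma, adjusted p = 0.000465). Slc12a3 was still well above background on 4 of 4 EGFP- arrays, and mouse 2 was the lowest of them.

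Sall3, a zinc finger transcription factor, lay at -0.32, -0.83, -0.19 and -1.24 in ALL and at -3.69, -4.33, -4.79 and -4.82 in EGFP-, a difference of 3.76 ± 0.21 (SE) with 7.36% (95% interval 5.13% to 10.6%) kept (limma, adjusted p = 0.000805). In EGFP-, 3 of 4 arrays had Sall3 signal well above background, and with the normexp background correction 14.2% was kept. Abca13, which encodes an ATP-driven lipid transporter, lay at 1.72, 1.72, 1.88 and 1.10 in ALL and at -1.38, -1.26, -1.41 and -2.02 in EGFP-. Its probe lies on chromosome 11 at 9583640 to 9583699 of the mm8 build, the build the probe coordinates of the files use. The loss of Abca13 was even across the mice, with a difference of 3.12 ± 0.07 (SE) and 11.5% (95% interval 10.2% to 13.0%) kept (limma, adjusted p = 0.000127). Sfrp1, a secreted antagonist of Wnt signalling, lay at 2.50, 2.37, 2.77 and 2.0 in ALL and at -0.37, -0.49, -0.59 and -1.21 in EGFP-, and 11.9% (95% interval 9.95% to 14.2%) was kept (limma, adjusted p = 0.000283). For each of these genes the lowest ALL array lay above the highest EGFP- array. Slc12a3 kept the smallest share of the 4. The markers were chosen with EGFP+ results of these mice known, and Sall3, Abca13 and Sfrp1 are among the genes highest in EGFP+ there, so their fall describes the sort and is no independent evidence.

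**Figure D1:**
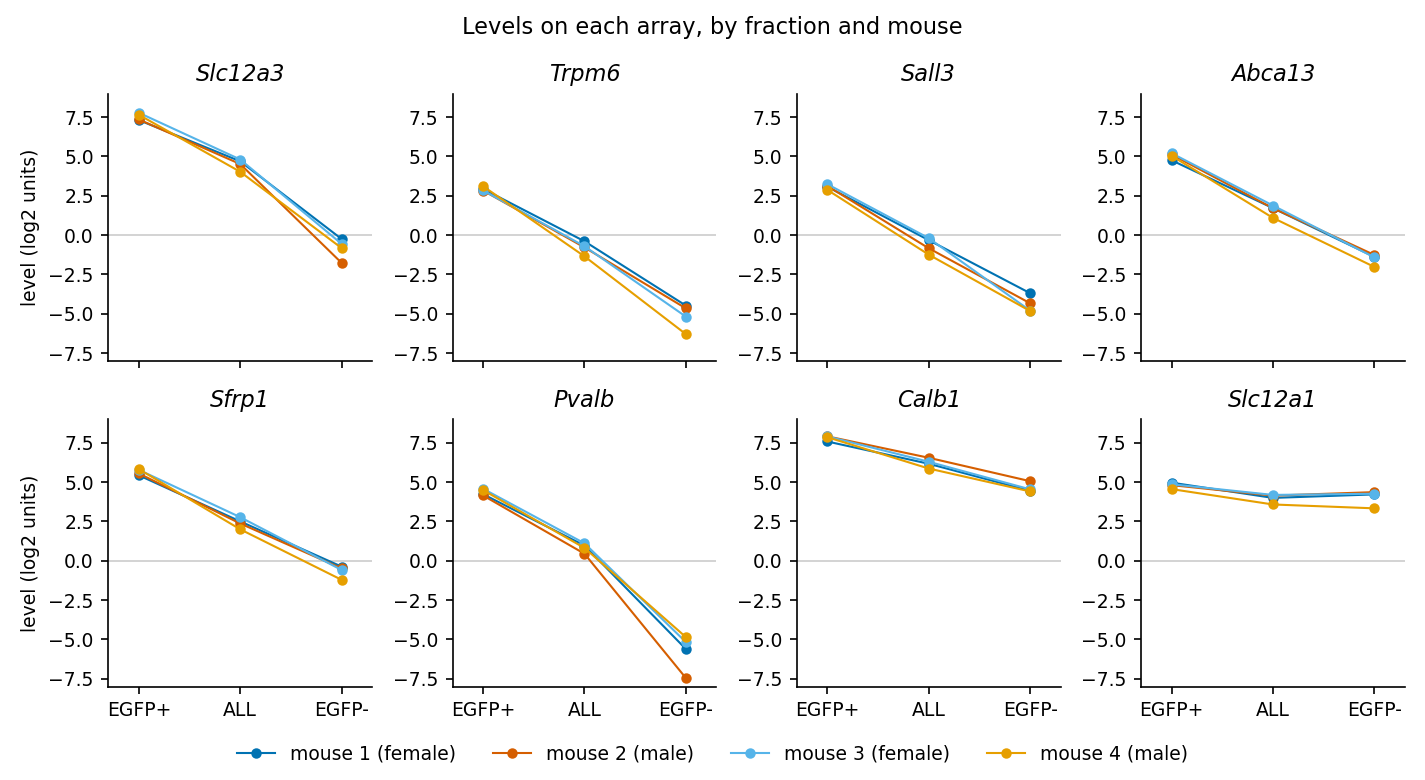
Levels (log2, vertical axes, where 0 is an array's 75th percentile) of 8 genes in the EGFP+, ALL and EGFP- fractions, with 1 line per mouse. Slc12a3 drops from 4.51 in ALL to -0.85 in EGFP- on average, Calb1 from 6.21 to 4.61, and Slc12a1 stays at 3.97 and 4.04. All 4 Pvalb values in EGFP- are not well above background.

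Nearly all genes that passed the test were higher in ALL. Of 16523 genes tested, 468 (2.83%) were higher in ALL and 19 (0.115%) were lower, by limma with the mouse as a block and an adjusted p under 0.05, so that 2.95% differed in either direction. Over all genes tested the signs were nearly even, with 8489 differences positive and 8034 negative and a median of 0.00, and of 2602 genes with an unadjusted p under 0.05, 1117 were lower in ALL. Of the 468 genes, 465 were higher in 4 of 4 mice, and the other 3 lack a mouse and were higher in the 3 measured. The genes were called on these same differences, so this agreement in sign is no independent evidence. Without the block for the mouse 107 genes were higher and 1 lower, and with the slide as the block 98 were higher and 1 lower. Leaving out mouse 1 left 305 genes higher, and leaving out mouse 2 left 280. Of 466 genes with a value on each of the 3 slides, 447 were higher in ALL within every slide; these arrays are the ones fitted. The ALL array of mouse 3 lies on slide 2 and its EGFP- array on slide 3, so values within those slides compare partly different mice.

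Most of the genes lost were lost in part. Of the 468, 12 had no probe well above background on any EGFP- array, and for the other 456 the share kept could be measured. Less than 10% of the ALL level was kept for 6 genes and less than 25% for 33, those 6 included, while 130 kept between 25% and 50% and 293 kept 50% or more. The highest share among the genes called lost was 79.6%.

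Among the 12 genes without measurable signal in EGFP- the loss is given as a lower bound. It sets the mean ALL level against the mean, over the EGFP- arrays, of a floor, namely the dimmest signal called well above background there or, if brighter, the signal of the probe itself. Pvalb, which encodes parvalbumin, a calcium buffer found in the early DCT, lay at 0.97, 0.45, 1.11 and 0.81 in ALL and was at least 67.8-fold lower in EGFP-, so that at most 1.47% was kept (limma, adjusted p = 0.000651). Its measured EGFP- values, from -7.45 to -4.85, were all below the mark for signal well above background, so Pvalb was tested through its ALL signal alone and its p rests on values below that mark. The same holds for the other genes given as bounds. The bounds of the other 11 genes were smaller. Sox9, a transcription factor of the SOX family, was at least 7.74-fold lower, Hmgcll1, a lyase of ketone body formation, at least 7.67-fold, Mapk10, a JNK family kinase, at least 5.21-fold and Ank2, an ankyrin of the membrane skeleton, at least 4.86-fold. Scara5 followed with at least 4.18-fold, Arhgdig with at least 3.39-fold and Grin3a with at least 3.20-fold. With the normexp background correction Sox9 (limma, adjusted p = 0.083), Hmgcll1 (0.098), Mapk10 (0.178), Scara5 (0.087), Arhgdig (0.129) and Grin3a (0.210) did not pass.

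The genes with the largest measured losses, taken from genes with clear signal on 3 or more of the 4 arrays of each fraction and a fall in 4 of 4 mice, began with Slc12a3, Sall3, Cwh43, Abca13, Sfrp1 and Prox1. Cwh43 kept 10.8% (95% interval 9.73% to 12%), at 1.48, 1.26, 1.42 and 0.85 in ALL and -1.61, -1.97, -1.82 and -2.43 in EGFP- (limma, adjusted p = 8.9e-05). Prox1, a homeobox factor, kept 12.5% (95% interval 10.4% to 14.9%). Prom2, a prominin of membrane protrusions, kept 15.3% and Batf3, a basic leucine zipper factor, 15.7%. Perm1 kept 17.7%, Vstm2a 17.9%, D430019H16Rik 18.3%, Ppp1r1a 18.8%, Ptgfr, the receptor for prostaglandin F, 19.0% and Dipk1b 19.8%. The remaining genes of these 20 were Tox3 (21.2% kept), Rapsn, which clusters acetylcholine receptors at the muscle synapse (22.9%), the monoamine oxidase gene Maob (23.0%), the monocarboxylate transporter gene Slc16a7 (23.0%) and Nol3 (24.0%). Of the 3 probes of Slc16a7, another kept 36.5% and the third did not pass. With the mean of these probes Slc16a7 did not pass (limma, adjusted p = 0.088). D430019H16Rik and Maob did not pass without the block for the mouse (0.112 and 0.061) or with the slide as the block (0.115 and 0.091). Rapsn did not pass with normexp (0.059) or with the slide as the block (0.051).

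Uroc1, which encodes the histidine-degrading enzyme urocanase, was the least even of the 20. It lay at 1.64, 1.07, 1.87 and 1.04 in ALL and at -0.55, -2.57, 0.67 and -1.99 in EGFP-, so that mice 1 and 3 kept 21.8% and 43.5% and mice 2 and 4 kept 8.03% and 12.2%. The difference was 2.52 ± 0.38 (SE) (limma, adjusted p = 0.0289). It no longer passed without mouse 1 (adjusted p = 0.127), without mouse 2 (0.095) or without mouse 4 (0.099), nor without the block for the mouse (0.293), with normexp (0.120), with the slide as the block (0.481), without a filter on dim probes (0.155) or over all 12 arrays without the block (0.064). Mice 1 and 3 are the females. A limma test of the ALL minus EGFP- difference between the sexes set 2 mice against 2, too few to decide on this split. No gene passed it (16113 genes, lowest adjusted p = 0.203, 767 genes with an unadjusted p under 0.05).

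Of 17 genes listed because they stood highest in EGFP+ in earlier results of these same mice, all 17 were lost here, with a median difference of 3.0, or 2.67 with the 4 genes without signal in EGFP- at their bound. The list was chosen on these samples, so its direction is no independent evidence. In ALL its genes lay at 7.0% to 12.4% of their EGFP+ level and, for the 13 with signal well above background on EGFP- arrays, at 0.557% to 4.62% in EGFP-. Tfap2b, an AP-2 family transcription factor, kept 33.9% (95% interval 28.4% to 40.6%) and Esrrb, an estrogen-related receptor, kept 37.5% (95% interval 32.8% to 42.8%), the largest shares of the 17. Tfap2b did not pass without the block for the mouse (limma, adjusted p = 0.184), with normexp (0.115) or with the slide as the block (0.122). All values set against EGFP+ share the ALL and EGFP- arrays with the tested comparison.

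The DCT's own genes for handling salt and magnesium were lost to very different degrees. Of 26 genes listed, 25 were tested (Kcna1 was not) and 15 were higher in ALL, with none lower, beside 2.83% of all genes. Their median difference was 0.73 against 0.00 for all genes tested. Without the block for the mouse 9 of the 25 passed, as with the slide as the block and with another background correction (normexp). Within slides 1, 2 and 3 the median difference of the list was 0.79, 0.77 and 0.69.

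Trpm6, the apical magnesium channel, followed Pvalb and Slc12a3. It lay at -0.39, -0.78, -0.70 and -1.35 in ALL and at -4.48, -4.65, -5.18 and -6.29 in EGFP-, a difference of 4.34 ± 0.18 (SE) with 4.93% (95% interval 3.64% to 6.67%) kept (limma, adjusted p = 0.000443). Only 2 of 4 EGFP- arrays were well above background, and mouse 4 was the lowest. Ppp1r1a, an inhibitor of protein phosphatase 1, lay at 4.53, 4.36, 4.61 and 4.37 in ALL and at 2.22, 2.20, 2.14 and 1.68 in EGFP-. Its groups were far apart, with a difference of 2.41 ± 0.10 (SE) and 18.8% (95% interval 15.9% to 22.2%) kept (limma, adjusted p = 0.000443). The 60-base probes behind both values are shown because they say which stretch of each transcript was measured; no base is marked. The Trpm6 probe maps to chr19:18944659-18944718 on the plus strand and the Ppp1r1a probe to chr15:103359427-103359486 on the minus strand of mm8, each as 1 block.
Trpm6 probe: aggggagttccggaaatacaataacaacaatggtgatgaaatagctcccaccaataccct
Ppp1r1a probe: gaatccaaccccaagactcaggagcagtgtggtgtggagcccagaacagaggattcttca

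In the WNK and SPAK cascade Klhl3, Wnk1, Wnk4 and Stk39 passed, and Oxsr1 and Cul3 did not. Klhl3, the substrate adaptor of the ligase that removes WNK kinases, lay at 0.63, 0.09, 0.37 and -0.09 in ALL and at -1.28, -2.0, -1.40 and -2.50 in EGFP-, and 24.2% (95% interval 19.9% to 29.4%) was kept (limma, adjusted p = 0.000785). Wnk4 lay at 3.31, 3.09, 3.36 and 3.41 in ALL and at 2.01, 2.25, 2.15 and 2.47 in EGFP-, with 47.5% (95% interval 40.4% to 55.9%) kept (limma, adjusted p = 0.00333). Stk39, which encodes SPAK, kept 53.5% (95% interval 46.8% to 61.2%) (limma, adjusted p = 0.00316). Stk39 did not pass without the block for the mouse (0.253 over 8 arrays, 0.064 over 12), with normexp (0.059) or with the slide as the block (0.171), and Wnk4 did not pass with normexp (0.094). The related kinase gene Oxsr1 lay at 1.59, 1.63, 1.68 and 1.54 in ALL and at 1.60, 1.63, 1.63 and 1.75 in EGFP-, and these ranges overlap. Oxsr1 differed by -0.04 ± 0.07 (SE) and Cul3, the scaffold of the ligase, by -0.01 ± 0.06 (SE). Neither passed (limma, adjusted p = 0.817 and 0.957), and the intervals of their kept shares were 91.9% to 115% and 91.3% to 111%.

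Wnk1 was lost at 5 of its 6 probes, while the one nearest the start of the gene did not pass. The brightest of its 6 probes lay at 3.62, 3.58, 3.49 and 3.02 in ALL and at 2.13, 1.92, 2.05 and 1.44 in EGFP-, a difference of 1.54 ± 0.06 (SE) with 34.4% (95% interval 30.9% to 38.3%) kept (limma, adjusted p = 0.000443). Wnk1 is known for a kidney-specific short form that starts inside the gene and is made mainly in the DCT, beside the full-length kinase found in many cells. In mm8 the gene reads on the minus strand of chromosome 6, and the probes cover 113 kb. At 5 of the 6 probes, between 64.9 and 113 kb downstream of the first, the signal was higher in ALL and 25.1% to 52.8% was kept. At the first probe, 120003253 to 120003312, the level was -2.67, -2.58, -2.53 and -3.11 in ALL and -2.45, -2.46, -2.50 and -2.70 in EGFP-. These ranges overlap, the difference was -0.20 ± 0.08 (SE) and 115% was kept (limma fit over all probes, adjusted p = 0.375).

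The brightest Wnk1 probe fell by more than the first probe in each mouse, by 1.71, 1.77, 1.47 and 1.98 on the log2 scale. An exact two-sided permutation test over the 4 mice gave p = 0.125, the smallest it can give with 4 pairs. The first probe was compared because it alone had not passed on these same values, so this p is no independent evidence. In EGFP+ the brightest probe lay at 6.10 ± 0.12 (SD, n = 4 mice) and the first probe at -3.89 ± 0.53, so the mean of the first probe was below its ALL mean of -2.72 ± 0.26. The probe next in order spans a splice junction, its 60 bases covering 1750 bases of the genome at chr6:119936671-119938420 on the minus strand of mm8, and kept 52.8%. It is shown as the first along the gene at which the loss was seen.
Wnk1 probe: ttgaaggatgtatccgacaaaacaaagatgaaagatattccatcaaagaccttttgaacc

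**Figure D2:**
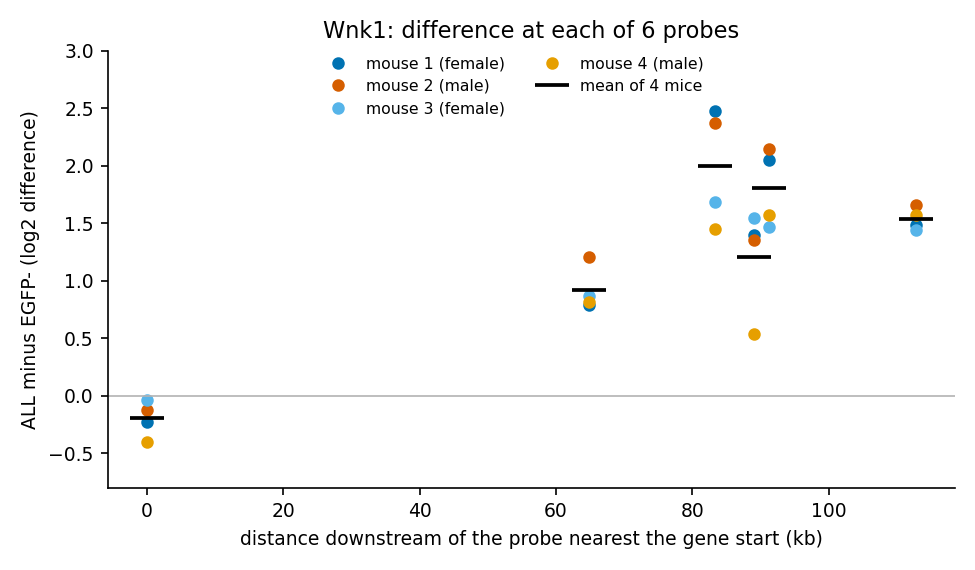
ALL minus EGFP- difference (log2, vertical axis) at each of the 6 Wnk1 probes by its distance in kb downstream of the probe nearest the start of the gene, with 1 point per mouse and a bar at the mean. The first probe averages -0.20 and the other 5 lie between 0.92 and 2.0.

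The basolateral channel and magnesium genes that passed kept between 38.3% and 60.8%. Kcnj10, the basolateral potassium channel of the DCT, lay at 3.49, 3.05, 3.21 and 2.70 in ALL and at 2.21, 1.66, 1.72 and 1.32 in EGFP-, with 38.3% (95% interval 34.5% to 42.5%) kept (limma, adjusted p = 0.000460). Its partner subunit Kcnj16 was measured in 3 mice and kept 100.2% (95% interval 84.9% to 118%), without passing (limma, adjusted p = 0.993). Bsnd, which encodes the channel accessory subunit barttin, kept 60.2% (95% interval 53.5% to 67.6%) (limma, adjusted p = 0.00400). Bsnd did not pass without the block for the mouse (1.0 over 8 arrays and over 12), over 12 arrays with the block (0.299), with normexp (0.107) or with the slide as the block (1.0).

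Egf, the precursor of the growth factor that stimulates magnesium uptake, lay at 5.93, 5.96, 6.20 and 5.78 in ALL and at 5.07, 4.98, 4.85 and 4.01 in EGFP-, and 42.3% (95% interval 32.4% to 55.3%) was kept (limma, adjusted p = 0.0132). Mouse 4 kept the least Egf, 29.4%, and mouse 1 the most, 55%. Egf did not pass without mouse 2 (adjusted p = 0.060) or mouse 3 (0.066), nor without the block for the mouse (0.078), with normexp (0.292), with the slide as the block (0.157) or without a filter on dim probes (0.097). The homeobox gene Emx1 kept 41.2%, Cnnm2, which encodes a membrane protein of magnesium balance, 58.2% and the magnesium transporter gene Slc41a3 60.8%. Cnnm2 did not pass without mouse 1 (limma, adjusted p = 0.067), mouse 2 (0.077) or mouse 3 (0.064), nor without the block (0.292 over 8 arrays, 0.085 over 12), with normexp (0.125), with the slide as the block (0.569) or without the filter (0.0999). Slc41a3 did not pass without the block (0.832 over 8 arrays, 0.624 over 12), over 12 arrays with the block (0.068), with the slide as the block (0.855) or without the filter (0.072).

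Other members of the list did not pass. Fxyd2, a subunit of the sodium pump, kept 89.3%, and the pump gene Atp1b1 kept 87.7%. Pcbd1, a transcriptional cofactor, kept 97.6% and the mineralocorticoid receptor gene Nr3c2 92.6%. Sgk1, the kinase induced by aldosterone, kept 118% (95% interval 107% to 131%) and lay above its EGFP+ level in both fractions, at 425% of it in ALL and 503% in EGFP-.

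**Figure D3:**
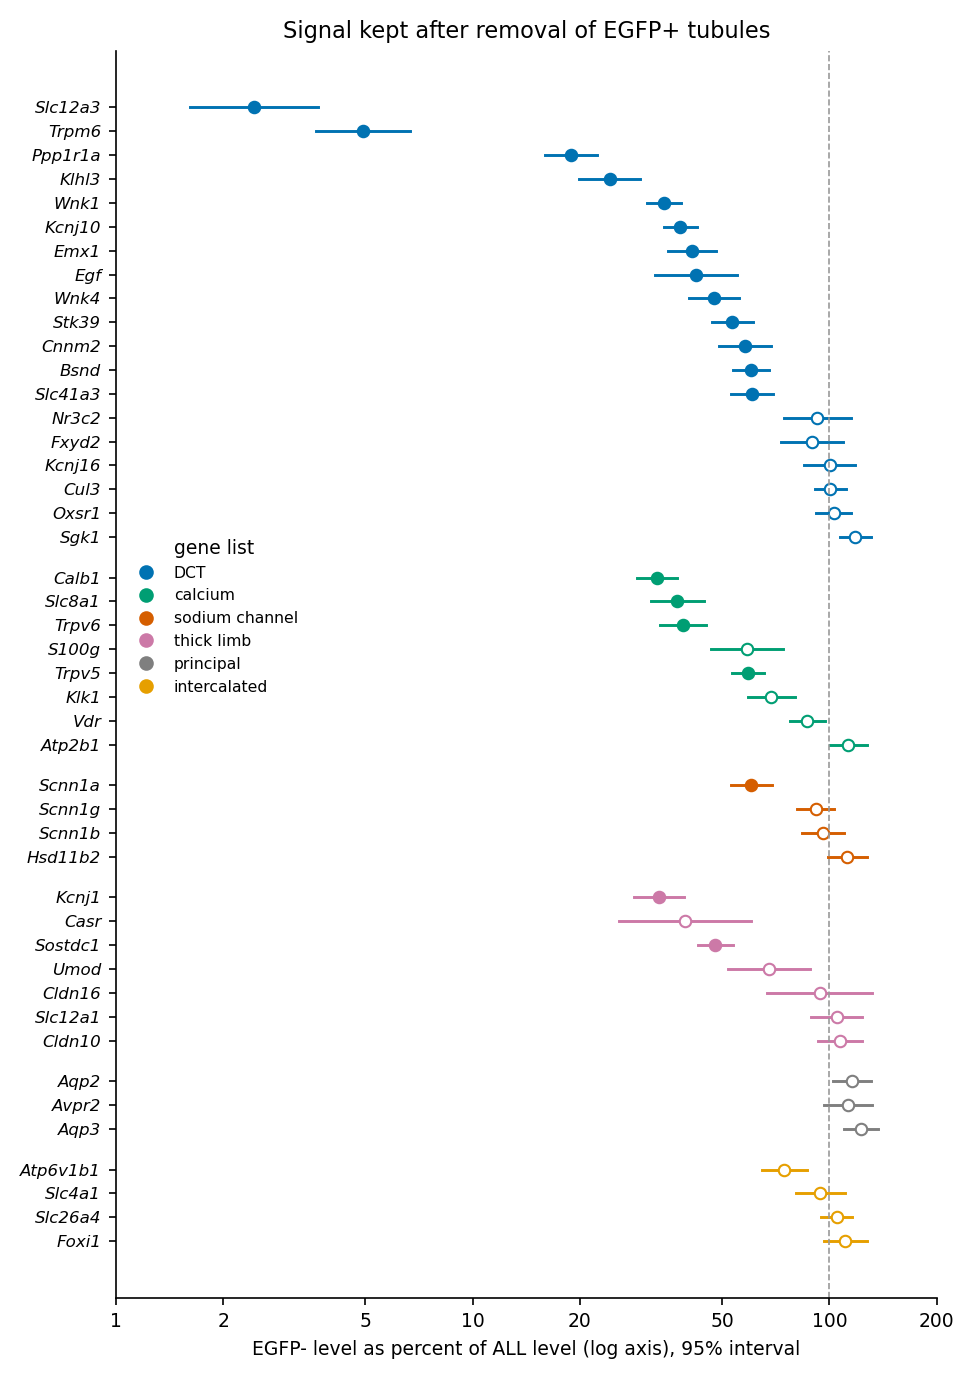
EGFP- level as a percent of the ALL level (horizontal log axis, dashed line at 100%) for genes of 6 lists, with the 95% interval of the limma fit over 4 mice (3 where a spot was left out). Filled points passed the test and open points did not. Slc12a3 keeps 2.44%, Wnk1 34.4% and Slc41a3 60.8%, and the 7 principal and intercalated cell genes drawn lie between 74.8% and 123%.

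Among calcium transport genes of the late DCT and connecting tubule, those that passed kept between 32.9% and 59.2%. Of 9 genes listed 8 were tested (Atp2b4 was not), and 4 were higher in ALL, beside 2.83% of all genes. Calb1, the calcium-binding protein calbindin, lay at 6.16, 6.54, 6.29 and 5.86 in ALL and at 4.44, 5.06, 4.54 and 4.4 in EGFP-, so that the 2 groups did not overlap. Its difference was 1.60 ± 0.08 (SE) and 32.9% (95% interval 28.9% to 37.5%) was kept (limma, adjusted p = 0.000516). In ALL, Calb1 lay at 33.1% of its EGFP+ level and in EGFP- at 10.9%, with 1 saturated spot among the EGFP+ arrays, which can make both shares too high. The exchanger gene Slc8a1 kept 37.5% (95% interval 31.7% to 44.5%), and its 5 other probes were lost as well, keeping 35.0% to 42.8%.

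Of the apical calcium channels, Trpv6 kept 38.8% and Trpv5 59.2%. Trpv5 lay at -1.0, -0.84, -1.14 and -1.90 in ALL and at -1.67, -1.69, -1.85 and -2.69 in EGFP-, so the 2 groups overlapped between mice although the fall was seen in each of the 4 (limma, adjusted p = 0.00219). Trpv5 did not pass without the block for the mouse (1.0 over 8 arrays, 0.673 over 12), with normexp (0.088) or with the slide as the block (1.0), and Trpv6 did not pass with normexp (0.260). S100g, an intracellular calcium carrier, was measured in 3 mice and kept 58.7% (95% interval 46.6% to 74.1%), without passing (limma, adjusted p = 0.0660). Klk1, tissue kallikrein, kept 68.7% (95% interval 59.0% to 79.9%) in the same 3 mice at its brightest probe (adjusted p = 0.0519) and 59.8% at a second probe that passed. With the outlier-marked spots of mouse 2 kept, both genes passed, S100g with an adjusted p of 0.026 and Klk1 with 0.013. The vitamin D receptor gene Vdr kept 86.6% (95% interval 77.4% to 96.9%) and the calcium pump gene Atp2b1 113% (95% interval 100.1% to 127%), and neither passed.

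Of the 3 subunits of the sodium channel ENaC, the alpha subunit passed and the other two did not. Of 11 genes of the channel and of the response to aldosterone 10 were tested, and 2, Scnn1a and Kcnj1, were higher in ALL, beside 2.83% of all genes. Scnn1a, the alpha subunit, lay at 1.90, 1.86, 1.96 and 1.37 in ALL and at 1.3, 1.23, 1.01 and 0.63 in EGFP-, and kept 60.4% (95% interval 52.9% to 68.8%) (limma, adjusted p = 0.00672). Scnn1b, the beta subunit, lay at 0.51, 0.22, 0.08 and -0.57 in ALL and at 0.28, 0.12, 0.01 and -0.40 in EGFP-, and kept 95.9% (95% interval 83.7% to 110.0%). Scnn1g, the gamma subunit, kept 91.7% (95% interval 81.4% to 103%). Neither passed (limma, adjusted p = 0.776 and 0.463), and the difference between the subunits was not tested. In EGFP- the 3 subunits stood at 11.6%, 48.6% and 63.8% of their EGFP+ levels in that order. Scnn1a did not pass without the block for the mouse (limma, adjusted p = 0.321 over 8 arrays, 0.108 over 12), with normexp (0.270), with the slide as the block (0.192) or without a filter on dim probes (0.064).

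In the thick ascending limb list 13 genes were tested, and 3 were higher in ALL, Kcnj1 and Sostdc1 among them, beside 2.83% of all genes. Kcnj1, the apical potassium channel ROMK of the thick limb and the aldosterone-sensitive tubule, lay at 5.82, 5.82 and 5.32 in ALL of mice 1, 3 and 4 and at 4.41, 4.19 and 3.61 in EGFP- of the same mice. It kept 33.3% (95% interval 28.4% to 39.1%) (limma, 3 mice, adjusted p = 0.00188). Sostdc1, a secreted antagonist of BMP and Wnt signals, kept 47.9% (95% interval 42.8% to 53.8%). With the slide as the block or with the normexp background correction neither Kcnj1 nor Sostdc1 passed, and Sostdc1 did not pass without the block for the mouse either (limma, adjusted p = 0.079).

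The cotransporter gene that defines the thick limb did not pass. Slc12a1 lay at 3.99, 4.14, 4.18 and 3.58 in ALL and at 4.22, 4.36, 4.26 and 3.33 in EGFP-, and these ranges overlap. It differed by -0.07 ± 0.10 (SE) and kept 105% (95% interval 89.1% to 123%) (limma, adjusted p = 0.786). Cldn10, a claudin of the paracellular sodium path, kept 107%, Cldn16 94.0% and Cldn19 92.8%, both claudins of the paracellular magnesium path. Umod, which encodes uromodulin, lay at 6.36, 6.57 and 6.45 in ALL of mice 1, 3 and 4 and at 6.11, 6.09 and 5.51 in EGFP-. It kept 67.8% (95% interval 52.0% to 88.3%) and did not pass (limma, adjusted p = 0.176). Casr, the calcium-sensing receptor, kept 39.5% (95% interval 25.8% to 60.4%), with mouse 4 keeping 23.0% and mouse 2 66.3%, and did not pass either (adjusted p = 0.0598). With arrays centred on their medians Casr passed (limma, adjusted p = 0.041). In EGFP+ Slc12a1 was not low: its ALL level was 56.6% and its EGFP- level 59.3% of the EGFP+ level, while the ALL level of Cldn10 was 3088% of the EGFP+ level.

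No listed gene of the collecting duct passed in either direction; with 2.95% of all genes called, few calls in lists of this size would be seen, so the shares kept are given. Of the 9 principal cell genes tested none passed, and their median difference was -0.17. Aqp2, the water channel regulated by vasopressin, lay at 2.44, 2.39, 2.61 and 1.55 in ALL and at 2.52, 2.63, 2.74 and 1.93 in EGFP-, with 116% (95% interval 102% to 130.5%) kept (limma, adjusted p = 0.242). Aqp3 kept 123% (95% interval 110.1% to 137%) and the vasopressin receptor gene Avpr2 113% (95% interval 96.3% to 132%). Of the 19 intercalated cell genes tested none passed, and their median difference was -0.01, with shares kept between 74.8% and 116%. The lowest share belonged to Atp6v1b1, a proton pump subunit, which kept 74.8% (95% interval 64.5% to 86.6%) (limma, adjusted p = 0.0816) and passed where only probes well above background on all 8 arrays were tested (adjusted p = 0.033). Slc4a1, the anion exchanger of acid-secreting cells, kept 94.3% and Slc26a4, pendrin, 105%. The macula densa genes Nos1 and Avpr1a, the 2 tested of 4, kept 108% and 109%.

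Among the 4 markers and the named genes of the DCT, calcium, sodium channel and thick limb lists that passed, the shares kept form an order whose ends are clear and whose neighbours often are not. Pvalb (at most 1.47%) and Slc12a3 stood lowest, followed by Trpm6, and the interval of Trpm6 (3.64% to 6.67%) overlaps those of Slc12a3 (1.61% to 3.69%) and Sall3 (5.13% to 10.6%). Abca13 and Sfrp1 came next, with intervals that overlap each other and that of Sall3. Ppp1r1a and Klhl3 followed, and their intervals overlap each other but not those of the 4 markers or Trpm6. Calb1, Kcnj1, Wnk1, Slc8a1, Kcnj10, Trpv6, Emx1 and Egf lay between 32.9% and 42.3%, and Stk39, Cnnm2, Trpv5, Bsnd, Scnn1a and Slc41a3 between 53.5% and 60.8%, with overlapping intervals within each of these ranges. Wnk4 and Sostdc1, at 47.5% and 47.9%, lay between them.

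**Figure D4:**
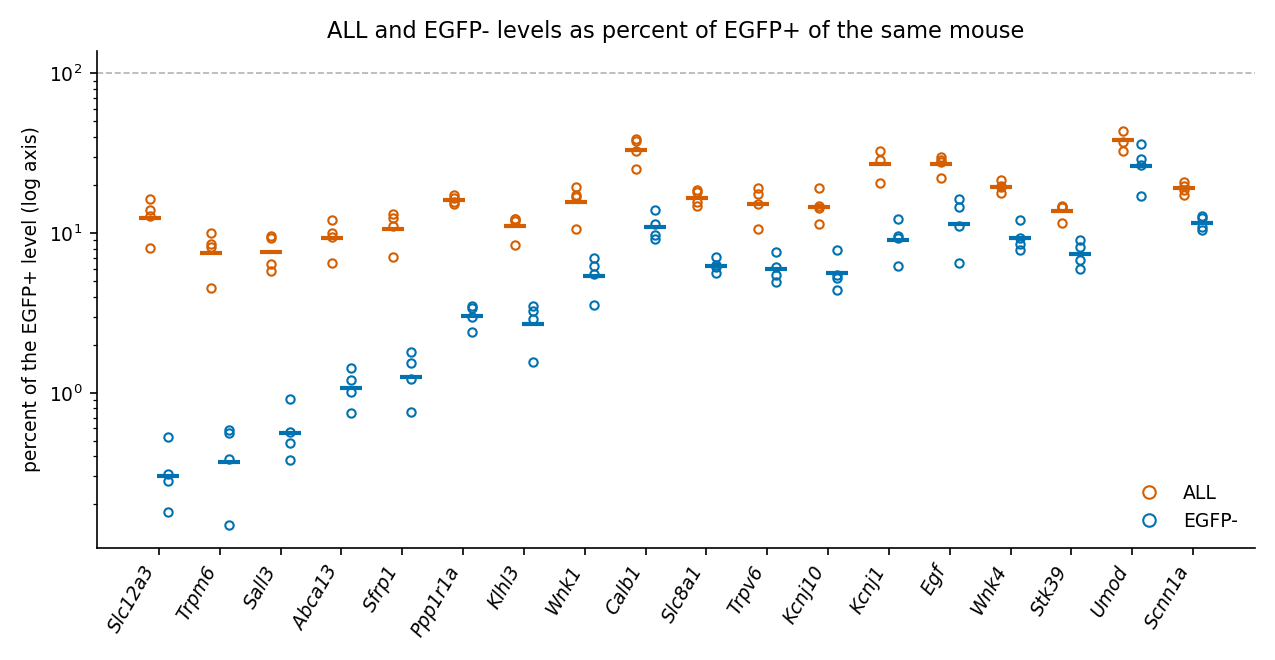
Levels in ALL (orange) and EGFP- (blue) as a percent of the EGFP+ level of the same mouse (log axis), with 1 open circle per mouse and a bar at the geometric mean. Slc12a3 stands at 12.4% in ALL and 0.30% in EGFP-, Wnk4 at 19.6% and 9.30%, and Umod at 38.5% and 26.3%.

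No listed marker of the proximal tubule or of the non-tubular cells passed in either direction, beside 2.95% of all genes. None of the 31 proximal tubule genes tested passed, and their median difference was -0.07. None of the 14 podocyte, 15 endothelial, 13 smooth muscle and stroma, 15 leukocyte and 4 erythroid genes passed either, with medians of -0.29, -0.23, -0.24, -0.13 and -0.24. The difference was negative, that is toward more signal in EGFP-, in 13 of 14 podocyte and 15 of 15 endothelial genes, beside 8034 of all 16523 genes. It was also negative in 28 of 31 proximal tubule, 12 of 13 smooth muscle and stroma, 11 of 15 leukocyte and 3 of 4 erythroid genes. The same held for 13 of 14 immediate early and heat shock genes, so this lean was not particular to podocytes and endothelium. Podxl, podocalyxin of podocytes and endothelium, kept 128% (95% interval 113% to 144%) and Kdr, an endothelial receptor for VEGF, 123% (95% interval 109% to 138%). Within slide 3 these medians reached -0.77 for podocyte and -0.63 for endothelial genes, and within slide 2 they were 0.00 for both, with mouse 3 split between these slides. Within mice 1 to 4 the podocyte medians were -0.22, -0.31, -0.14 and -0.45 and the endothelial medians -0.18, -0.16, -0.25 and -0.29. Podxl (limma, adjusted p = 0.035) and Tek (0.033), an endothelial receptor, passed as lower in ALL where probes had to be well above background on all 8 arrays, Tek also with outlier-marked spots kept (0.045), and the stroma gene Itga8 with the mean of probes (0.036). The part of these cells in the distal results was not tested.

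**Figure D5:**
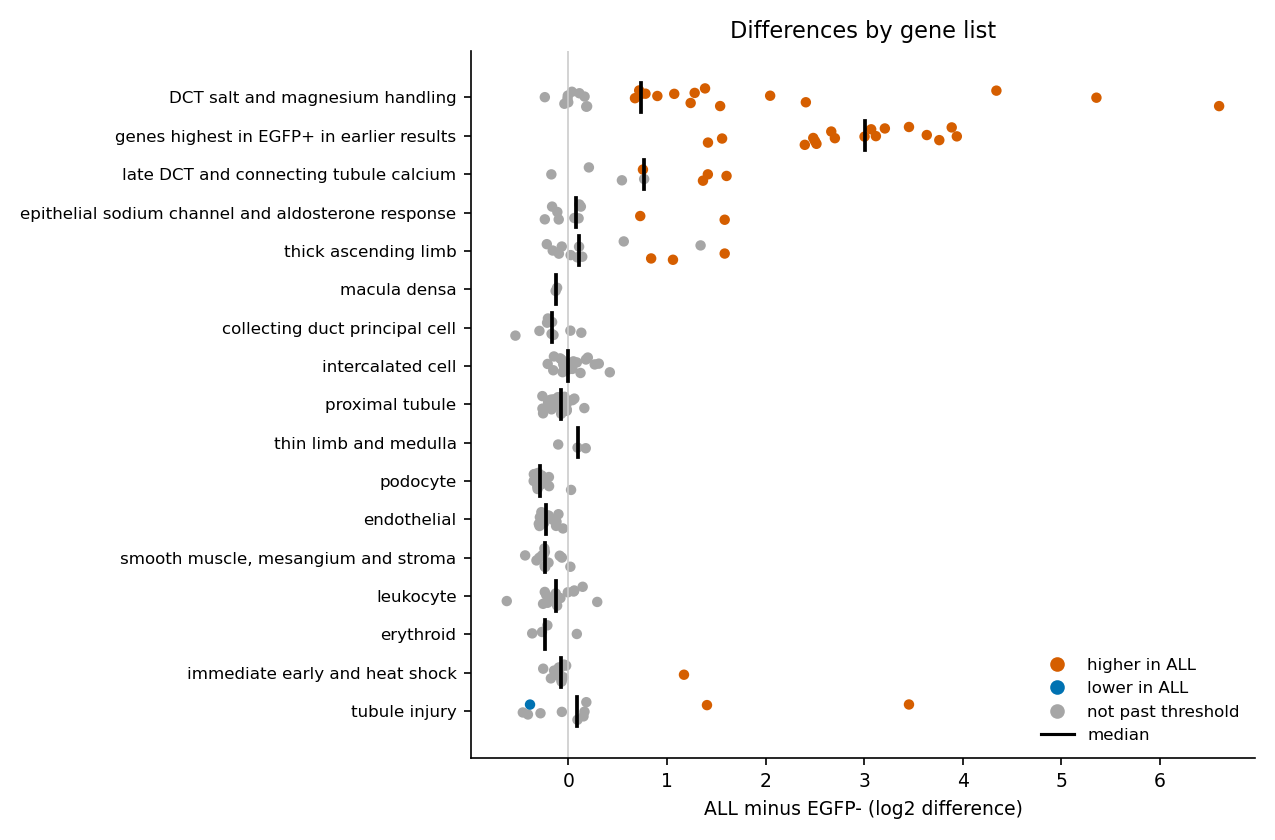
ALL minus EGFP- differences (log2, horizontal axis) of the tested genes of 17 lists, 1 point per gene and a bar at each list's median. Genes past the limma threshold in ALL are orange, lower ones blue and the rest grey. The DCT list reaches from -0.24 to 6.60, where the highest point, Pvalb, has no EGFP- signal well above background, and the principal cell list from -0.54 to 0.13.

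Among 14 immediate early and heat shock genes tested, 1 was higher in ALL, beside 2.83% of all genes: Ier3, a gene induced early by stress, kept 44.4% (95% interval 39.2% to 50.2%) (limma, adjusted p = 0.00114), without passing when the mouse was not a block (adjusted p = 0.479 over 8 arrays, 0.183 over 12) or when the slide was (0.15). Among 11 genes of tubule injury tested, Clu and Sox9 were higher in ALL and Vim, an intermediate filament gene, was lower, beside 2.83% of all genes higher and 0.115% lower. Clu, the secreted chaperone clusterin, lay at 4.34, 4.59, 4.09 and 4.03 in ALL and at 3.1, 3.13, 2.64 and 2.56 in EGFP-, and 37.7% (95% interval 33.8% to 42.2%) was kept (limma, adjusted p = 0.000493). The other 8 genes of that list did not pass.

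Few genes rose when EGFP+ tubules were removed. Dnajc14, which encodes a chaperone of the DnaJ family, had the largest gain among the genes that passed. It lay at -0.29, 0.22, -0.15 and -0.08 in ALL and at 0.72, 1.10, 0.81 and 0.75 in EGFP-, without overlap, and its EGFP- level was 189.5% of its ALL level (95% interval 171% to 210%, limma, adjusted p = 0.00123). In EGFP+ the same probe lay at -0.53. Its probe spans a splice junction at chr10:128219781-128219925 on the plus strand of mm8, covering 145 bases of the genome, and is shown because the second probe of the gene did not share the gain.
Dnajc14 probe: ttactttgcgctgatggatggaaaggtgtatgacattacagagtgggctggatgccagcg

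The second Dnajc14 probe, at 128222068 to 128222127, differed by 0.13 ± 0.11 (SE), kept 91.5% and did not pass (limma fit over all probes, adjusted p = 0.668). The difference at the first probe minus that at the second was -1.17, -1.21, -0.72 and -1.11 in mice 1 to 4 (exact two-sided permutation p = 0.125, the smallest possible with 4 pairs), and with the mean of both probes the gene was not called. These probes were compared because on the same values the first passed and the second did not, so this p is no independent evidence. The other 18 genes that rose gained between 1.24-fold and 1.68-fold, among them Synm, Gimap3, Flrt2, Aoc3, Dlk1, Ntrk2, Sla, Vim, Cyp26b1, Ets1 and Kcnt1. Each of these 11 lost its call whichever of the 4 mice was left out, and without the block for the mouse. With the normexp background correction the difference of 6 of them, Aoc3 (0.26), Flrt2 (0.067), Gimap3 (0.32), Kcnt1 (0.17), Sla (0.027) and Synm (0.028), turned toward ALL.

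Promoters of the lost genes were searched for short motifs of factors whose genes were lost or which act in this segment, over 250 bases before the start in RefSeq promoters of GRCm38.p6. Of the 468 genes, 323 matched the promoter table, with 455 promoters. The AP-2 motif GCCNNNGGC was in 19.1% of them, against 20% of the promoters of genes tested and 13.7% of all promoters in the table. The SOX motif ACAAAG was in 13.0%, 12.7% and 16.5% in the same order, and the estrogen-related receptor half-site AAGGTCA in 4.62%, 3.1% and 4.08%. The longer half-site TCAAGGTCA, which contains the previous one, was in none of the 455 promoters, 0.237% of those of genes tested and 0.387% of all. The HNF1 half-site GTTAAT was in 5.05%, 4.73% and 6.43% in the same order. A smaller set held 37 promoters from 29 of the 43 genes with a computed share kept under 25%. Unlike the 33 genes counted above, these 43 include genes given only as bounds. Among the 37 promoters, GTTAAT was in 4 (10.8%), the AP-2 motif in 7 (18.9%) and the SOX motif in 5 (13.5%). There AAGGTCA was in 1 (2.7%) and TCAAGGTCA in none, and no difference in motif share was tested. Both strands were searched, and a match is a stretch of letters, not a bound site. Promoters of Trpm6 (chr19:18749480-18749729, plus strand), Wnk4 (chr11:101260317-101260566, plus strand) and Abca13 (chr11:9191692-9191941, plus strand) are shown as examples from genes with strong, middling and strong loss. Capitals mark AP-2 motifs and, in Abca13, also the SOX motif read on the other strand.
Trpm6 promoter: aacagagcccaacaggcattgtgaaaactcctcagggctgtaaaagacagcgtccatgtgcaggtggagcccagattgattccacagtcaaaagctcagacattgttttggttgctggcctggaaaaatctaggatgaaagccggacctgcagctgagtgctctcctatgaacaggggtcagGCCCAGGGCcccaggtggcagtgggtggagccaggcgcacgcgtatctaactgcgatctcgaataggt
Wnk4 promoter: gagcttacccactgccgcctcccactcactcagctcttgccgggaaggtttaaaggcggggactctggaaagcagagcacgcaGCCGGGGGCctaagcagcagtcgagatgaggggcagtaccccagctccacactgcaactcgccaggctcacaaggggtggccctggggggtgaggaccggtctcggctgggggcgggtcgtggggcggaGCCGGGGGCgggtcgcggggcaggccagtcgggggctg
Abca13 promoter: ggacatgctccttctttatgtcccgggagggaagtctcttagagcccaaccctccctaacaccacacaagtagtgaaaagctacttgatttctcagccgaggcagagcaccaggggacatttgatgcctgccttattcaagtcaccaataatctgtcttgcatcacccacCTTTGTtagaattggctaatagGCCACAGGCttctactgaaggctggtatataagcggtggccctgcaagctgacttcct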

How the data were processed

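RNA of 3 tubule fractions (EGFP+, EGFP- and ALL) from 4 mice was hybridised to 1-colour Agilent arrays (design 014868), 1 array per fraction and mouse, and fractions were taken from the sample type in the labels. Per the file headers, the deposited scanner files hold spot intensities from Feature Extraction 9.5.3.1, and the processed signal used here is the background-corrected intensity. The value table of the series (12 columns) was not used here. The log2 of the processed signal was taken and the 75th percentile over the non-control probes of each array subtracted. Control and outlier-marked spots were left out and spots of 1 probe averaged. Only probes with signal well above background on 4 or more of the 8 fitted arrays were kept, and the brightest represented its gene. A linear model with the mouse as a block and the fraction was fitted with limma 3.58.1 in R 4.3.3 (lmFit and eBayes, Benjamini-Hochberg adjustment over all 16523 genes, threshold 0.05), and tested on simulated data with 200 changed genes. The p-values rest on how far the ALL minus EGFP- differences within these 4 mice spread around their mean, moderated over all genes by eBayes.

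The pairing comes from the mouse number in the labels: each array's deviations from its fraction's mean correlated with those of the other array of the same mouse at 0.80, 0.80, 0.77 and 0.86, each best with its own mouse. Probes were named through RefSeq tables by accession (24375), current symbol (6301) or older symbol (2426), and 8072 kept the name in the files. Probe coordinates are those of mm8 (NCBI36) per the file headers; exons and UTRs are not given because that build's annotation was not used here. Promoter sequences are from RefSeq, GRCm38.p6. Genes were named by a rule: the 4 markers, the 20 largest losses and 12 largest gains that passed in the same direction in 4 of 4 mice with clear signal on 3 or more of the 4 arrays of each fraction, the 8 largest lower bounds, members of the tubule lists and of the list from earlier results, and up to 4 genes of each other list. Some listed genes are counted but not reported here by name. The members and lists were chosen with earlier results of these data known. Alternatives were 15: fits without the block or over all 12 arrays, normexp background correction, quantile or median scaling, other filters, another probe rule, outlier-marked spots kept, the slide as the block, and each mouse left out.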

Additional observations from a re-analysis of the deposited data

Results flagged for a closer look

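In 9 of 145 named genes with a value in 4 mice, 1 mouse's ALL minus EGFP- difference (log2) lay far from the other 3 by Dixon's test. Chance marks about 1 in 20 such groups. Atp6v0a4, a proton pump subunit of intercalated cells, differed by -0.27 in mouse 3 and by 0.31 to 0.37 in the other mice. Clu differed by 1.25 in mouse 1 and by 1.45 to 1.47 in the others, so it was higher in ALL in all 4. Ehd3, an endothelial gene, differed by -0.43 in mouse 4 and by -0.26 to -0.22 in the others. Irx2 differed by 0.40 in mouse 4 and by -0.37 to -0.33 in the others. Nedd4l, the ubiquitin ligase of the sodium channel, differed by 0.34 in mouse 2 and by -0.01 to 0.05 in the others. The macula densa gene Nos1 differed by 0.33 in mouse 4 and by -0.33 to -0.22 in the others. Oxgr1, a receptor for oxoglutarate, differed by 1.36 in mouse 4 and by -0.11 to 0.04 in the others. Slc8a1 differed by 1.07 in mouse 4 and by 1.48 to 1.56 in the others, and Vstm2a by 2.27 in mouse 1 and by 2.54 to 2.59 in the others. Mouse 4 was the outlying mouse in 5 of the 9 genes, and its ALL array had the lowest 75th percentile, 922.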

How the results depend on the processing

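Slc12a3, Abca13 and Sfrp1 passed under all 15 alternatives, and Sall3 under the 14 in which it was tested, since it was below the 8-array filter. The count of genes higher in ALL, 468, was 107 without the mouse as a replicate block, 299 and 199 over all 12 arrays with and without the block, 104 with normexp, 230 with no filter on dim probes (more genes tested), 98 with the slide as the block and 280 to 346 with 1 mouse left out. The count lower, 19, was 1 without the block, in both 12-array fits, with normexp, with no filter and with the slide as the block, 33 with arrays centred on their medians, 71 where probes had to be well above background on all 8 arrays, 11 with the mean of probes, 29 with outlier-marked spots kept and 1 to 6 with 1 mouse left out. The DCT list had 9 genes higher without the block, with normexp and with the slide, the list from earlier results 10 under the 8-array filter (fewer genes tested), and the calcium list 2 with normexp. The share kept was 14.2% for Sall3 and 14.3% for Abca13 with normexp, and 12.7% for Abca13 with the slide. With normexp 6 genes called lower in ALL turned positive: Aoc3 (0.26), Flrt2 (0.067), Gimap3 (0.32), Kcnt1 (0.17), Sla (0.027) and Synm (0.028). Other than the 4 markers, 48 named genes were higher in ALL, and 48 kept that call with quantile scaling, 33 without the block, 31 with the slide and 27 with normexp. Of 90 named genes not called, up to 6 passed under an alternative, those under the 8-array filter. Where no construction is named, the cause was not tested.

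Of the calls 96.1% were higher in ALL, and 87.3% under the 8-array filter. Small differences are limited by 4 mice and weak ones by background: 12 genes have only a bound in EGFP-.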
